A study of Mus musculus with 151 samples.

Results

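The piRNA pathway genes described here are 10 genes chosen by name: the PIWI genes Piwil1, Piwil2 and Piwil4, and Mov10l1, Tdrd1, Tdrd9, Mael, Asz1, Gtsf1 and Ddx4. All 10 were found by symbol among the 35976 gene names of each of the 7 count tables. The study set female mice conceived by in vitro fertilization (IVF) against naturally conceived females (Natural). Both groups came from CF-1 mothers and B6/SJL fathers. Natural embryos developed in vivo with no embryo transfer. IVF mothers were superovulated, and their embryos were cultured to the blastocyst stage and moved to pseudopregnant recipients, so that superovulation, fertilization in vitro, culture and transfer cannot be told apart. Libraries were made from 100 primordial germ cells (PGCs) at E13.5 (4 Natural, 5 IVF), from ovaries at E18.5 (4 and 6), 12 weeks (4 and 5) and 39 weeks (5 and 5), from single oocytes at 12 weeks (36 and 40) and 39 weeks (9 and 10), and from cumulus cells at 12 weeks (5 and 5 libraries in the table). The adult females had been delivered by cesarean section and fostered to CF-1 dams, and their oocytes and cumulus cells were collected after hormonal superovulation. One account of the methods places fetal collection a day later in IVF than in Natural pregnancies, and the 39-week Natural ovary replicate 5 carries 40 weeks in its tissue label.

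piRNAs are small RNAs of germ cells that are carried by PIWI proteins and guide them to the transcripts of transposable elements. In mice PIWIL2 and PIWIL4 act in fetal male germ cells, where PIWIL4 directs DNA methylation to transposons, and PIWIL1 acts in male meiosis. The helpers of the PIWI proteins sit in the nuage, an RNA-rich material beside the mitochondria of germ cells. Female mice that lack most of these genes are fertile, and mouse oocytes also hold small interfering RNAs made by Dicer.

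The genes lie on several chromosomes of the mouse genome (GRCm38, RefSeq coordinates). Piwil1 was at chr5:128736071-128755474 on the plus strand, Piwil2 at chr14:70372477-70436898 (minus), Piwil4 at chr9:14701776-14740672 (minus) and Mov10l1 at chr15:88982891-89055152 (plus). Tdrd1 was at chr19:56826171-56870012 (plus), Tdrd9 at chr12:111971488-112068854 (plus), Mael at chr1:166201385-166238744 (minus), Asz1 at chr6:18050964-18109061 (minus), Gtsf1 at chr15:103402458-103430445 (minus) and Ddx4 at chr13:112598333-112652633 (minus). Only Piwil4 had exons that overlapped those of another annotated gene, by 118 bases with the antisense gene Gm10706. The strand setting of the counting is not given in the sources used here, so reads of this pair may not be told apart.

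RefSeq promoter windows (GRCm38.p6), which run from 250 bases before to 50 bases after an annotated start, were at hand for 9 of the 10 genes. The letters CACGTG, the palindromic E-box that MAX and its partners bind, stood in a window of 6 of these 9 genes, namely Ddx4, Mael, Mov10l1, Piwil1, Tdrd1 and Tdrd9. Counted by window, 7 of the 12 windows of these genes held them, beside 7.15% of 32851 promoter windows of this length. Among the 7 are overlapping Tdrd1 windows that hold the same box, which is thus counted more than once. The letters include a CG, and the share over all windows was not matched for CG content. The letters TCCCGC, searched on both strands as TCCCGC or GCGGGA, stood in 2 of the 9 genes (Ddx4 and Mael). By window this was 2 of 12, beside 20.0% of all windows. No copy of one motif overlapped a copy of the other in these windows. The 6 genes with the E-box are shown because it is a sequence feature that they share; capitals mark CACGTG, which reads the same on both strands. It lay 29 to 24 bases before the start of its window in Ddx4, 223 to 218 in Mael, 246 to 241 in Mov10l1 and 77 to 72 in the Tdrd1 window shown, while Piwil1 and Tdrd9 held 2 copies each. These starts can differ from the ends of the gene spans above. The Ddx4 span reaches 112652633, past its window, and the Tdrd1 span begins at 56826171. Boxes of Ddx4, Tdrd1 and Piwil1 thus lie wholly or partly inside the spans. Ddx4 had 38 CG dinucleotides in its window, a number reached by 4.95% of all windows, against a median of 7, and Mael had 24. A match is a description of these letters and no evidence of binding.
Ddx4 (chr13:112652261-112652560, minus strand): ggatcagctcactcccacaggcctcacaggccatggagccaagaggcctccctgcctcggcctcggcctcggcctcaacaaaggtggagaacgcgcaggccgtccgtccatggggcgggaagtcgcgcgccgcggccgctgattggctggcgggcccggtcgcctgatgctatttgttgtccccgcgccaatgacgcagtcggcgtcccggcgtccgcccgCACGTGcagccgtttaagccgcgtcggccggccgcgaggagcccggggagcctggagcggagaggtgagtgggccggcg
Mael (chr1:166238695-166238994, minus strand): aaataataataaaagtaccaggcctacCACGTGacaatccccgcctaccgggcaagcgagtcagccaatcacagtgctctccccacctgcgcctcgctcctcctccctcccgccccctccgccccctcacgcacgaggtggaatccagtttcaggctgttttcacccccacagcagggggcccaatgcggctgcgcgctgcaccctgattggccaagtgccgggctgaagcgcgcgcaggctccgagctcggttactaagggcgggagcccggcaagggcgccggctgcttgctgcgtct
Mov10l1 (chr15:88982744-88983043, plus strand): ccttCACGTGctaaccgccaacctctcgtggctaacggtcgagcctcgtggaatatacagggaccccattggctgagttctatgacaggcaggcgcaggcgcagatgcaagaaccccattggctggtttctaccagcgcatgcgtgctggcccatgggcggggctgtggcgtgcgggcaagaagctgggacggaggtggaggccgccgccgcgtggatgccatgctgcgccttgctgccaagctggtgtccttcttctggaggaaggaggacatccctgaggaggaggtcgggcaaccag
Piwil1 (chr5:128735996-128736295, plus strand): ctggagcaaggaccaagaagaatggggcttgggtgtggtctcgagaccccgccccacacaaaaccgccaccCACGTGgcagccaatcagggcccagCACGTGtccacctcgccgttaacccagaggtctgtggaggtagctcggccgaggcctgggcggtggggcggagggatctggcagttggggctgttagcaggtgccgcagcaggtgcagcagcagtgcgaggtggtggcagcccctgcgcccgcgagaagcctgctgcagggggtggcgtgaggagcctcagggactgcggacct
Tdrd9 (chr12:111971309-111971608, plus strand): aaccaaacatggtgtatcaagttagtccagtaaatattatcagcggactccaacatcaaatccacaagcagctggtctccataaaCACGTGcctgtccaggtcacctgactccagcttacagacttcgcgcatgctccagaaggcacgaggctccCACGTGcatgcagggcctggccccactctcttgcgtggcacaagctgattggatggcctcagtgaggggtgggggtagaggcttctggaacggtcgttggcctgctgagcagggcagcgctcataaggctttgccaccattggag
Tdrd1 (chr19:56826025-56826324, plus strand): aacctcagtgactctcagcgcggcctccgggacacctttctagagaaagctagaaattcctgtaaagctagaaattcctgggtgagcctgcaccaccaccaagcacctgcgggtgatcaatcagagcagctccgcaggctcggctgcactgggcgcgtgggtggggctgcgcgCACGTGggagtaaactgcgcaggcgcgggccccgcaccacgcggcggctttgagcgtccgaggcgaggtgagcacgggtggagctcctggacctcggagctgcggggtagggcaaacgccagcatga

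Values below are counts of a gene relative to all gene counts of a library, scaled as CPM. Total counts ranged from 4364495 to 8675189 in PGC libraries, from 2839022 to 43363799 in ovary libraries, from 839781 to 31126357 in single oocytes and from 2532824 to 6345249 in cumulus libraries. Oocytes of 12 weeks were summed into 10 sets by the first fields of their library names, 5 Natural and 5 IVF, because cells of 1 animal are not replicates. They are called donor sets below, but the labels do not say what these fields stand for. The labels put libraries in groups but do not tie each to an animal, so p-values measure the spread between these libraries. The PGC libraries held 4097 to 8575 summed CPM of fetal germ cell markers such as Dazl and Dppa3, and at most 32.0 of granulosa markers. The oocyte libraries held 26304 to 55956 summed CPM of oocyte growth markers such as Gdf9 and Zp3 and at most 159.1 of granulosa markers. Natural 39-week oocytes 6 and 9 stood apart, with Gdf9 at 439 and 946 CPM, while the other 17 oocytes of that age were at 12423 to 28972 CPM. In 12-week ovaries the summed oviduct epithelium markers were at 3299 to 7753 CPM in Natural and at 33.7 to 3229 in IVF, and in 39-week ovaries at 36.4 to 211.4 in Natural and at 61.8 to 8375 in IVF; their part in the ovary results was not tested.

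The most abundant PIWI transcript differed between fetal germ cells and superovulated oocytes. Piwil2 made up a median of 98.3% of the summed PIWI level (CPM per kb of exon of Piwil1, Piwil2 and Piwil4) in Natural PGCs and 97.4% in IVF PGCs, with a lowest library of 93.9%. Piwil1 made up 99.3% in Natural and 98.9% in IVF oocyte sets of 12 weeks, with a lowest set of 97.0%. In single 39-week oocytes the Piwil1 share had a median of 97.4% in Natural and 99.8% in IVF, and the lowest oocyte was at 80.1%.

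**Figure D1:**
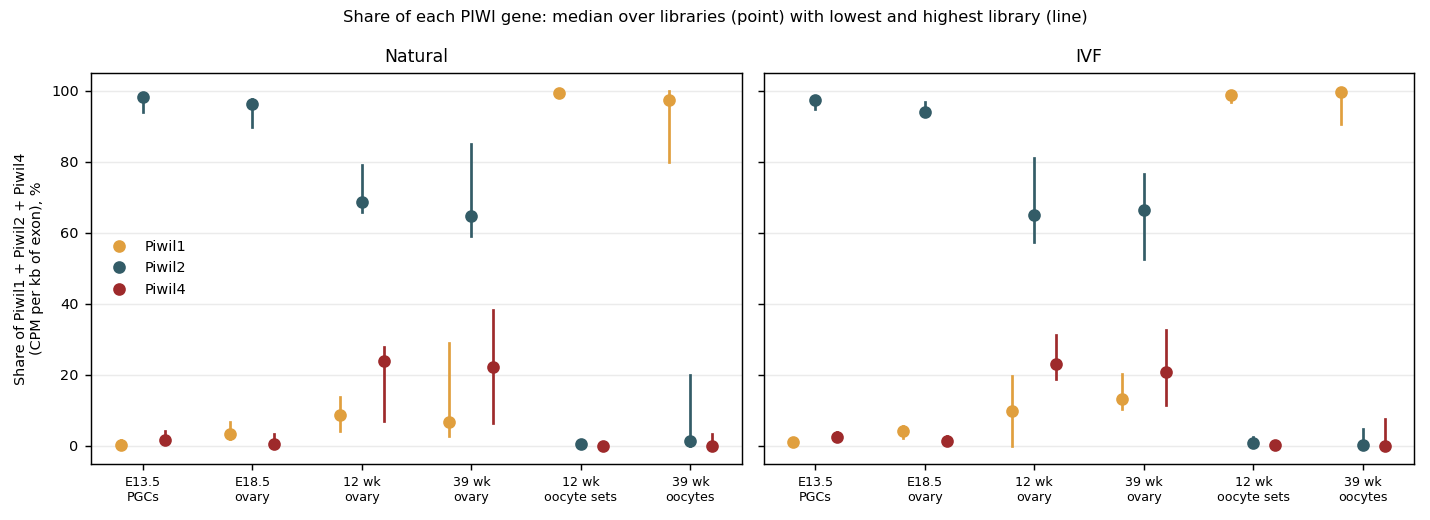
Share of Piwil1, Piwil2 and Piwil4 (vertical axis, %) in their summed CPM per kb of exon in 6 kinds of library (horizontal axis), with Natural on the left and IVF on the right. Points are medians over libraries and lines run from the lowest to the highest library. Piwil2 held at least 93.9% in every PGC library and the lowest share of Piwil1 in a 12-week oocyte set was 97.0%.

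Piwil2, whose protein binds fetal piRNAs, stood at 152, 185, 156 and 170 CPM in the Natural PGC libraries and at 0.584, 0.216, 0.408, 0.866 and 0.262 CPM in the Natural oocyte sets. The groups lay far apart, and Piwil2 fell by 6.59 on the log2 scale (SE 0.55, adjusted p = 6.64e-10, edgeR's quasi-likelihood test with Benjamini-Hochberg adjustment over all genes). Piwil1 went the other way, from 0, 2.99, 0 and 0.458 CPM in the Natural PGC libraries to 57.4, 45.0, 51.1, 61.6 and 38.7 CPM in the oocyte sets, a log2 fold change of 7.65 (SE 0.66, adjusted p = 1.07e-09 by edgeR). Piwil4, the PIWI protein of the fetal male nucleus, was scarce in both, at 1.15 to 5.97 CPM in Natural PGCs and at 0 to 0.289 CPM in the oocyte sets, with 3 of 5 sets at 0 counts (log2 fold change -3.29, SE 1.09, adjusted p = 0.00989 by edgeR). Age, cell number per library and table cannot be told apart in this comparison. Its fold changes are scaled to the tested genes of a joint fit, not to the library totals alone. The scaling factors were higher in every PGC library than in every oocyte set, so fold changes lie above the ratios of plain CPM. Rises and falls below are on this fitted scale, and scaling by library totals alone was not tested.

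Between Natural E13.5 PGCs and Natural 12-week oocytes, 4 of the 10 genes rose and 4 fell, beside 38.9% of the 17368 genes tested called higher and 37.2% called lower, so that a change as such was common. DESeq2 called 8 of the 10 as well. The median log2 fold change of the 10 genes was 0.16, and that of all genes tested was -0.09. Besides Piwil1, the genes that rose were Gtsf1, Tdrd1 and Tdrd9. Gtsf1, a zinc finger cofactor of PIWI cleavage, was at 0.570, 7.09, 1.33 and 0.916 CPM in Natural PGCs and at 5.09 to 6.78 in the oocyte sets, with PGC replicate 2 above every set in plain CPM (log2 fold change 3.20, SE 0.50, adjusted p = 6.57e-06 by edgeR). Tdrd1, a Tudor protein that gathers PIWI proteins in the nuage, was at 14.1, 75.5, 8.29 and 4.58 CPM in Natural PGCs and at 34.4 to 50.7 in the oocyte sets. Again PGC replicate 2 lay above all sets and the other 3 libraries below them in plain CPM (log2 fold change 2.77, SE 0.50, adjusted p = 3.93e-05 by edgeR). Tdrd9, a Tudor helicase that works with PIWIL4, rose by 2.18 on the log2 scale (SE 0.55, adjusted p = 0.00127 by edgeR), from 0.458 to 15.8 CPM in Natural PGCs to 4.48 to 8.11 CPM in the sets, ranges that overlapped in plain CPM. The joint fit divides by scaling factors, 2.49 for Natural PGC replicate 2 and 0.462 to 0.617 for the Natural sets. On that scale PGC replicate 2 lay below every set for Gtsf1, Tdrd1 and Tdrd9.

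The genes that fell besides Piwil2 and Piwil4 were Mov10l1 and Mael. Mov10l1, the helicase that feeds piRNA precursors into processing, was at 129.6, 242.4, 84.6 and 64.6 CPM in Natural PGCs and at 2.32 to 4.77 in the oocyte sets, with no overlap (log2 fold change -3.58, SE 0.30, adjusted p = 7.88e-10 by edgeR). Mael, a nuage protein needed for transposon silencing, was at 68.0, 170.8, 31.3 and 25.2 CPM in Natural PGCs and at 2.78 to 8.00 in the sets, with no overlap in plain CPM (-1.96, SE 0.47, adjusted p = 0.000715 by edgeR). The scaling factors were 1.97 for Natural PGC replicate 4 and 0.542 for Natural set 35_3. On the fitted scale set 35_3 lay above PGC replicate 4 for Mael, so the groups overlapped. The remaining genes were among the most abundant per length in both cell types. Asz1, a nuage protein of the outer mitochondrial membrane, had a median of 41.9 CPM per kb in Natural PGCs and 14.6 in Natural oocyte sets, and its log2 fold change was 0.40 with a 95% interval from -0.18 to 0.97 (adjusted p = 0.195 by edgeR). Ddx4, the mouse VASA RNA helicase and a standard germ cell marker, had the highest median of the 10 in Natural PGCs at 125.4 CPM per kb and 11.1 in Natural oocyte sets. Its log2 fold change was -0.08, with a 95% interval from -1.49 to 1.33. That value rests on the 2 Natural donor sets named 92_4 and 92_5, described below; with both left out, Ddx4 fell by 2.46 on the log2 scale (adjusted p = 0.000388 by edgeR, with adjusted p between 0.000388 and 1 over 23 alternatives). The log2 fold changes are scaled to the tested genes of a joint fit and so differ from the ratio of the CPM values.

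In whole ovaries, 9 of the 10 genes fell from E18.5 to 12 weeks in Natural females, beside 24.3% of 19724 genes tested called lower, and DESeq2 called the same number. The median log2 fold change of the 10 was -4.67, and that of all genes tested was 0.01. Mov10l1 fell by 6.97 (SE 0.50, adjusted p = 3.65e-11), from 74.2, 111.5, 36.2 and 111.7 CPM to 0.207, 0.982, 0.722 and 0.602 CPM, with no overlap. Tdrd9 fell by 6.33 (SE 0.45, adjusted p = 2.57e-11 by edgeR), and Mael by 5.35, Tdrd1 by 4.71, Piwil2 by 4.69, Gtsf1 by 4.65, Asz1 by 4.18 and Ddx4 by 4.08 on the same log2 scale. Piwil1, the most abundant PIWI transcript of the superovulated oocytes, fell least, by 2.84 (SE 0.69, adjusted p = 0.00141 by edgeR), from 2.43 to 4.18 CPM to 0.166 to 0.589 CPM. In Natural 12-week ovaries the median PIWI share was 68.6% for Piwil2, 23.8% for Piwil4 and 8.68% for Piwil1. Piwil4 did not pass the test (log2 fold change 0.71, 95% interval -0.40 to 1.82, adjusted p = 0.288 by edgeR). Of the 13 fetal germ cell markers, 10 could be tested and all 10 were called lower, with a median log2 fold change of -4.96, while 8 of 10 granulosa markers were called higher. In a whole ovary, fewer germ cells and less RNA per germ cell cannot be told apart. Each ovary age has its own table, so age and table cannot be told apart in any ovary comparison between ages. From 12 to 39 weeks, 0 of the 10 genes passed edgeR's test in Natural ovaries, 0 had an unadjusted p under 0.05 and DESeq2 called 0, beside 21.6% of genes called in either direction; the median of the 10 was -0.35. Adult ovaries held little of these transcripts, with the 10 genes together at 9.09 to 28.2 CPM over all 19 adult ovary libraries, against 259.4 to 897.5 CPM at E18.5.

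**Figure D2:**
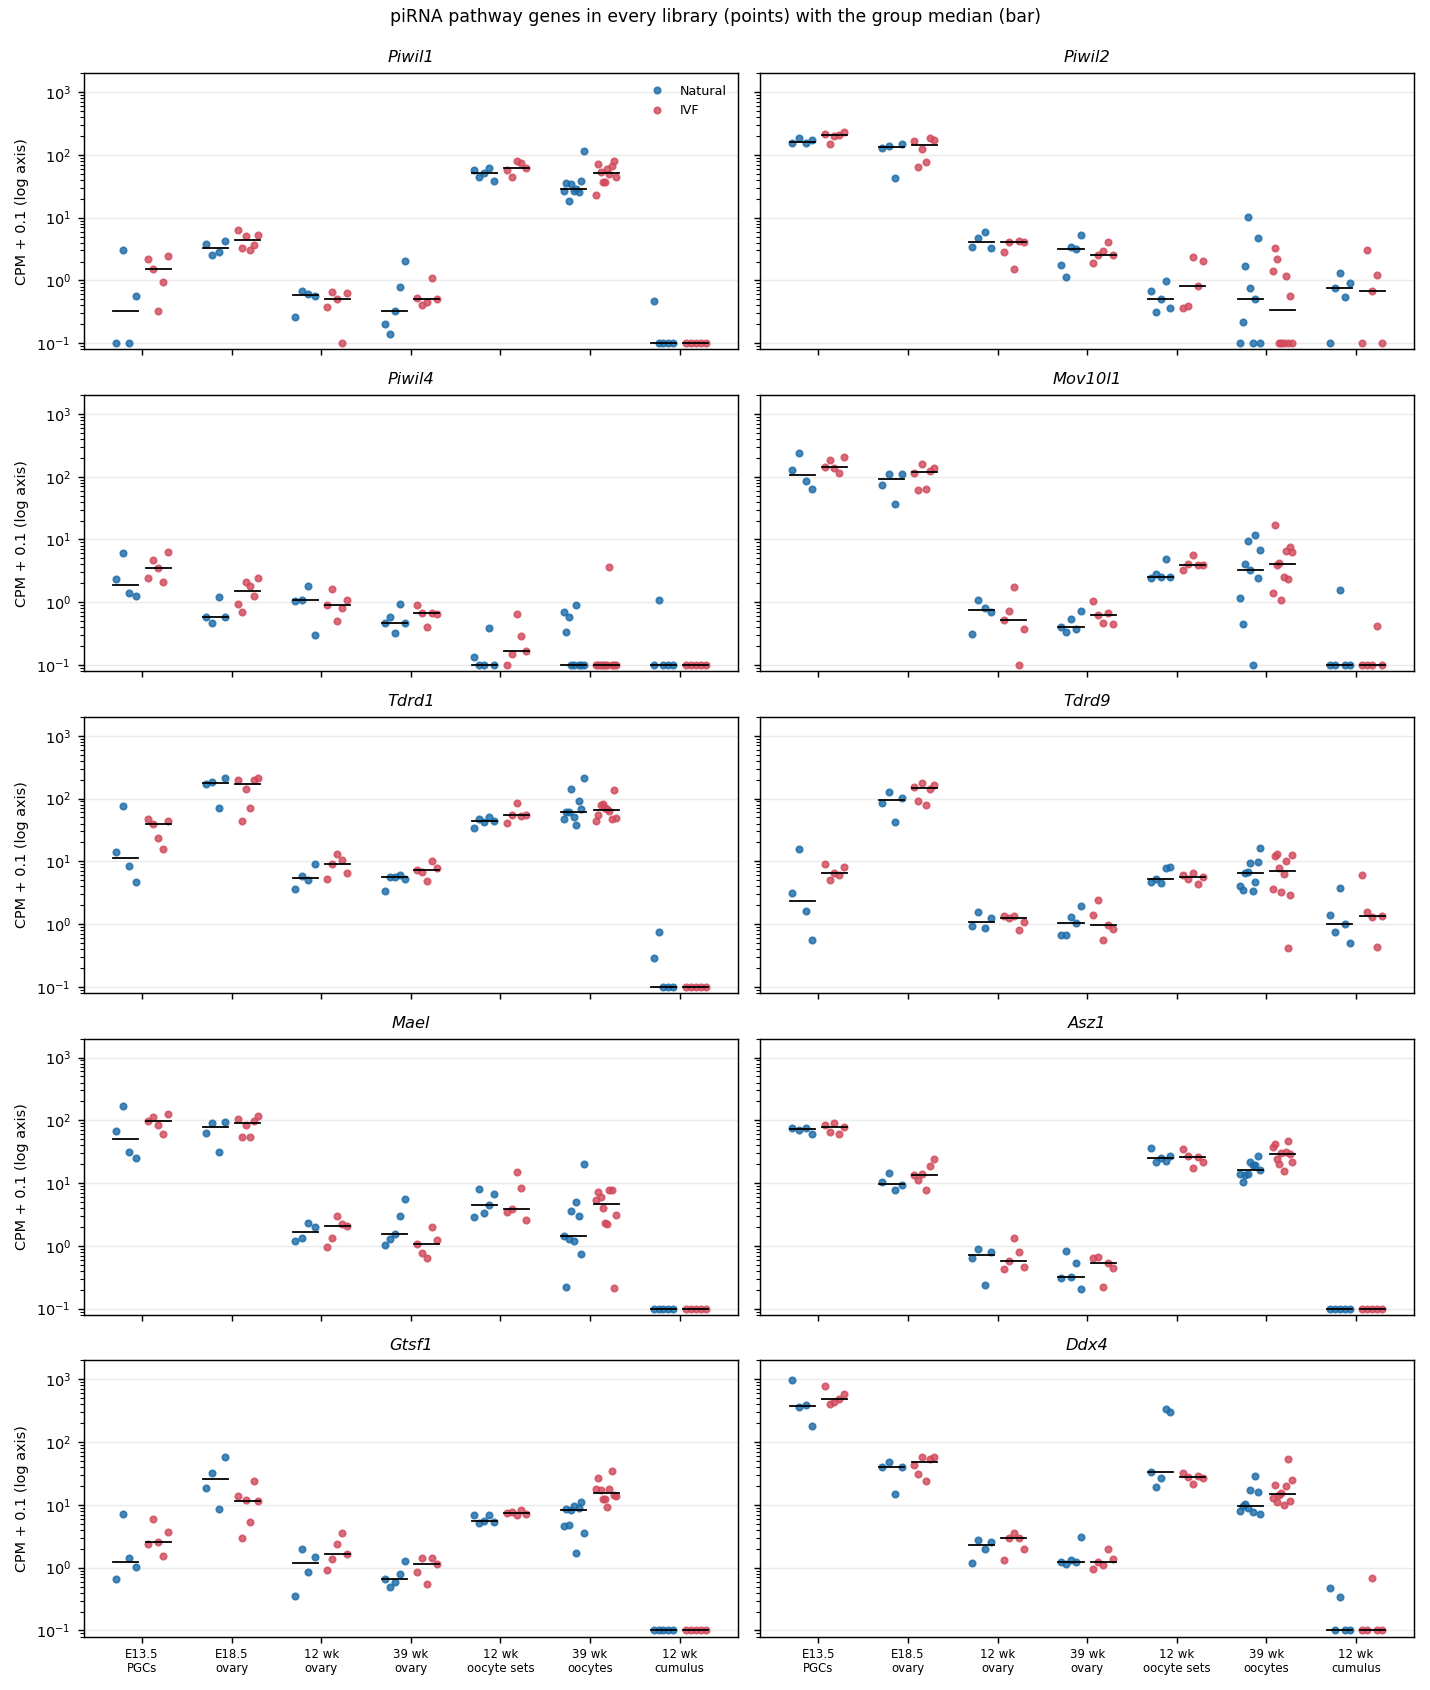
Level of the 10 piRNA pathway genes, 1 panel each, in every library of the 7 tables (horizontal axis), as CPM plus 0.1 on a log axis. Blue points are Natural and red points IVF libraries (donor sets for 12-week oocytes), and black bars are group medians. Piwil2 and Mov10l1 were high in PGCs and E18.5 ovaries and low in oocytes, Piwil1 was high in oocytes, and Mael, Asz1 and Gtsf1 had no count in any cumulus library.

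In E13.5 PGCs, 0 of the 10 genes differed between IVF and Natural by edgeR's quasi-likelihood test, 0 had an unadjusted p under 0.05 and DESeq2 called 0, beside 0% of 12763 genes tested. All 10 log2 fold changes were above 0, with a median of 0.41 against -0.04 over all genes tested. These 10 signs come from the same 9 libraries and are not independent of each other. Ddx4 was at 988, 369, 387 and 179 CPM in Natural and at 779, 413, 439, 482 and 595 CPM in IVF libraries, and the Natural libraries held both the highest and the lowest value. Mael was at 68.0, 170.8, 31.3 and 25.2 CPM in Natural and at 96.8, 114.8, 83.6, 60.4 and 124.1 CPM in IVF (log2 fold change 0.42, 95% interval -0.50 to 1.33). The Natural group spanned the whole IVF range for Mael as well, with replicate 2 at the top and replicates 3 and 4 at the bottom. Tdrd1 was at 14.1, 75.5, 8.29 and 4.58 CPM in Natural and at 46.3, 38.9, 23.1, 15.8 and 43.0 CPM in IVF libraries. Without 1 library at a time, its log2 fold change of 0.51 ran from 0.19 to 1.67, and it never passed the test. The closest estimates were those of Piwil2 (0.26, 95% interval -0.21 to 0.74), Asz1 (0.05, -0.42 to 0.52) and Mov10l1 (0.26, -0.40 to 0.92). Natural replicate 2 was the highest of its group for 8 of the 10 genes.

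In E18.5 ovaries, 0 of the 10 genes passed edgeR's test, 2 had an unadjusted p under 0.05 and DESeq2 called 0, beside 5.43% of 16415 genes tested. The median log2 fold change was 0.32, against 0.00 over all genes tested, with 8 values above 0 and 2 below. Gtsf1 was at 18.8, 32.6, 8.65 and 56.8 CPM in Natural ovaries and at 13.6, 2.87, 11.7, 5.17, 23.9 and 11.3 CPM in IVF ovaries. The 2 highest libraries were Natural and the 2 lowest IVF, and the groups overlapped. The log2 fold change was -1.40 (SE 0.51, 95% interval -2.49 to -0.31, unadjusted p = 0.0158, adjusted p = 0.115 by edgeR), and without Natural replicate 4 it was -0.85; the adjusted p ran from 0.0616 to 0.362 over 16 alternatives. Oocyte growth markers moved with it: 5 of the 13 tested were called lower in IVF, none higher, with a median of -1.81, and their summed level was 258.4 to 1051 CPM in Natural and 50.6 to 339.3 CPM in IVF ovaries. Relative to the counts of these markers, Gtsf1 had 3.35 to 5.41% in Natural and 3.51 to 7.22% in IVF ovaries, with medians of 4.59 and 4.75%. Whether the growth markers account for the Gtsf1 values was not tested. Piwil4 was at 0.487, 0.374, 1.10 and 0.472 CPM in Natural and at 0.855, 0.593, 2.00, 1.69, 1.14 and 2.296 CPM in IVF ovaries, low values that overlapped (log2 fold change 1.17, 95% interval 0.08 to 2.27, adjusted p = 0.177 by edgeR).

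In E18.5 ovaries, Natural replicate 3 and IVF replicates 2 and 4 had the lowest summed level of the 10 genes, at 259.4, 361.5 and 388.6 CPM, and also the lowest level of fetal germ cell markers, at 243.7, 464.9 and 380.1 CPM. Piwil2 was at 131, 140, 43.2 and 148 CPM in Natural and at 168, 63.8, 123, 77.6, 187 and 170 CPM in IVF ovaries. These 3 libraries were its 3 lowest, and with them left out together 0 of the 10 genes were called. Tdrd9 was at 85.0, 126, 42.1 and 103 CPM in Natural and at 151, 91.4, 176, 79.7, 142 and 163 CPM in IVF ovaries (log2 fold change 0.57, 95% interval -0.01 to 1.14, adjusted p = 0.213 by edgeR). Erythroid markers were also higher in IVF ovaries, at 1639 to 4598 summed CPM against 584 to 1595 in Natural ones (2 of 6 tested called higher); their part in these values was not tested.

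In 12-week ovaries, 0 of the 10 genes passed edgeR's test, 0 had an unadjusted p under 0.05 and DESeq2 called 0, beside 0.00567% of 17628 genes tested. The median log2 fold change of the 10 genes was 0.06, and that of all tested was 0.01. Tdrd1, the most abundant of the 10 in CPM here, was at 3.56, 5.70, 4.88 and 9.00 CPM in Natural and at 5.14, 9.06, 13.2, 10.6 and 6.43 CPM in IVF ovaries, which overlapped (log2 fold change 0.58, 95% interval -0.17 to 1.32). Piwil2 was at 3.27, 4.66, 5.84 and 3.21 CPM in Natural and at 2.72, 4.00, 1.44, 4.23 and 3.96 CPM in IVF ovaries (-0.40, 95% interval -1.15 to 0.35). Counts were low for the others; Asz1, for example, had 54 counts over the 4 Natural and 50 over the 5 IVF libraries, and its interval ran from -1.25 to 1.36.

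In 39-week ovaries, 0 of the 10 genes passed edgeR's test, 1 had an unadjusted p under 0.05 and DESeq2 called 0, beside 0.262% of 17186 genes tested. Their median log2 fold change was 0.20, against 0.03 over all genes tested. The gene was Mael, at 0.924, 1.20, 1.44, 2.92 and 5.55 CPM in Natural and at 0.965, 0.671, 0.541, 1.89 and 1.15 CPM in IVF ovaries. Natural replicates 4 and 5 were the highest libraries, and the groups overlapped (log2 fold change -1.21, SE 0.54, unadjusted p = 0.0484, adjusted p = 0.258 by edgeR). Without Natural replicate 5, labelled 40 weeks, the log2 fold change was -0.61. The same library had the highest Piwil1 and Ddx4 of its group, at 1.92 and 3.01 CPM. Tdrd1 was at 3.29, 5.61, 5.53, 5.91 and 5.11 CPM in Natural and at 7.29, 6.71, 4.69, 9.89 and 7.80 CPM in IVF ovaries, where 4 of 5 IVF libraries lay above all Natural ones (log2 fold change 0.52, 95% interval -0.00 to 1.05, adjusted p = 0.26 by edgeR).

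**Figure D3:**
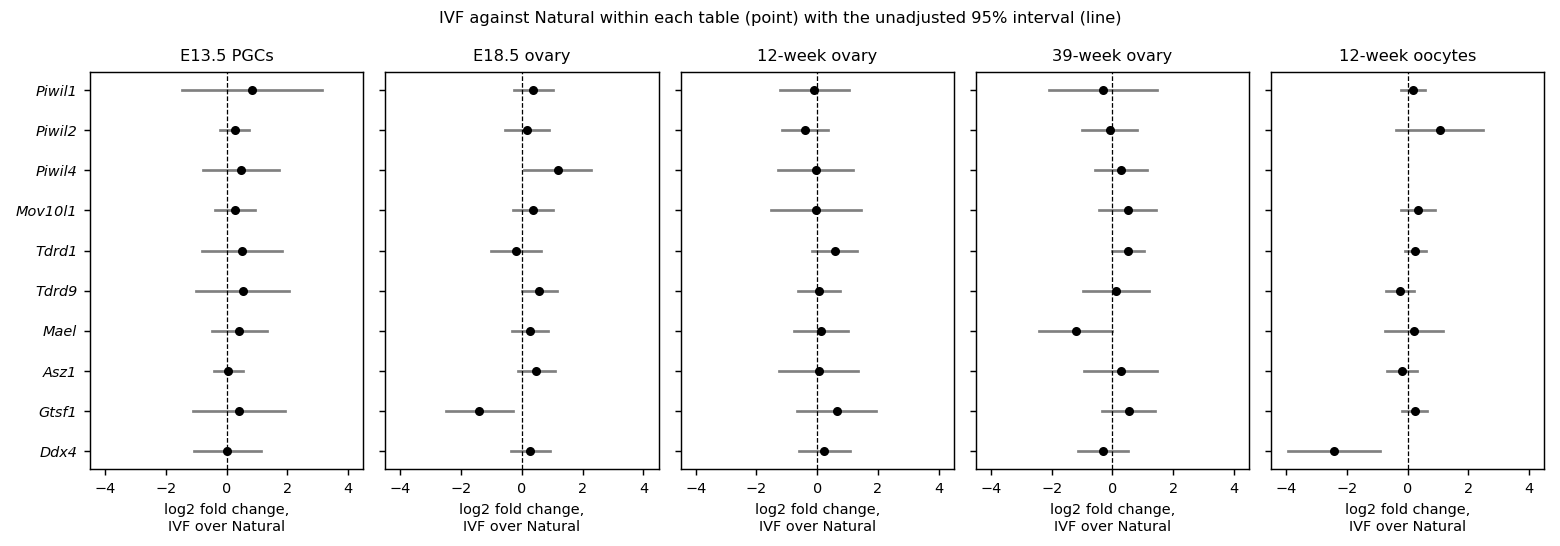
Log2 fold change of IVF over Natural (horizontal axis) for each of the 10 genes (vertical axis) in 5 tables, from edgeR, with the unadjusted 95% interval as a line; Piwil4 was too low to be tested in 12-week oocytes. Intervals that miss 0 are those of Gtsf1 (-2.49 to -0.31) and Piwil4 (0.08 to 2.27) at E18.5, Mael (-2.41 to -0.01) in 39-week ovaries and Ddx4 (-3.95 to -0.92) in 12-week oocytes, and none of them held after adjustment.

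In 12-week oocytes, 9 of the 10 genes passed the filter on low counts. Of these 0 passed edgeR's test, 1 had an unadjusted p under 0.05 and DESeq2 called 0, beside 0.0277% of 14444 genes tested. Their median log2 fold change was 0.20, against 0.02 over all tested. That gene was Ddx4, at 33.5, 19.4, 26.7, 332.9 and 298.3 CPM in the Natural sets 35_1, 35_3, 92_3, 92_4 and 92_5 and at 32.4, 27.9, 21.4, 28.6 and 26.7 CPM in the IVF sets 126_2, 126_3, 126_4, 127_2 and 127_3. Sets 92_4 and 92_5 stood about an order of magnitude above the rest, and the other 3 Natural sets fell within or beside the IVF range. The log2 fold change was -2.43 (SE 0.70, unadjusted p = 0.00407, adjusted p = 0.699 by edgeR); with both sets left out it was -0.14, and the adjusted p ran from 0.0700 to 0.966 over 15 alternatives.

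The elevation was present in nearly every oocyte of the 2 sets. Of their 15 oocytes, 14 had over 100 CPM of Ddx4, from 160.9 to 393.5 CPM, and of the 61 oocytes of the other 8 sets 0 did, with a median of 24.2 and a highest value of 47.6 CPM. The remaining oocyte of the pair, from set 92_4, had 839781 total counts and 0 of Ddx4. It also stood apart in Mael, at 38.1 CPM, and Piwil2, at 13.1 CPM. Set 92_3, whose name starts alike, did not share the elevation. Among the 6826 genes with at least 5 CPM in both sets, Ddx4 was the only one whose lower set of the pair was over 2-fold the highest other set, at 8.92-fold. The next gene was Fam132a at 1.58-fold, with 74.0 and 65.3 CPM against at most 41.4 CPM. Fam132a and this comparison were chosen after the values were seen. The pair itself was picked for its Ddx4 level, so that the first place of Ddx4 was largely set by that choice.

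Gtsf1 was the only tested gene of the 10 whose 12-week groups did not overlap in plain CPM, beside 1.79% of the 14444 genes tested. IVF lay above Natural in 1.64% of genes and below in 0.145%. It was at 6.78, 5.09, 5.40, 6.73 and 5.15 CPM in the Natural sets and at 7.45, 7.72, 6.90, 8.15 and 7.08 CPM in the IVF sets. Every IVF set lay above every Natural set in plain CPM. The fit also divides by TMM factors, 0.897 for Natural set 35_1 and 1.19 for IVF set 126_4. On that scale set 35_1 lay above set 126_4, so the groups overlapped. The fitted log2 fold change was 0.23 (SE 0.19, 95% interval -0.18 to 0.64, adjusted p = 0.89 by edgeR). Piwil1 was at 38.7 to 61.6 CPM in Natural and at 44.5 to 80.2 CPM in IVF sets, Tdrd1 at 34.4 to 50.7 and at 40.7 to 85.9 CPM, and Asz1 at 21.9 to 35.9 and at 17.3 to 35.4 CPM. The intervals of these 3 genes were narrow and spanned 0, from -0.21 to 0.58 for Piwil1, from -0.10 to 0.61 for Tdrd1 and from -0.67 to 0.30 for Asz1. Set 126_4 had the highest level of Piwil1, Piwil2, Mov10l1, Tdrd1 and Mael among the 10 sets in plain CPM. On the TMM scale other sets lay above it for Piwil1, Piwil2 and Mov10l1.

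Mael split the single oocytes of both groups. Of 76 oocytes, 10 had over 10 CPM of Mael, from 18.0 to 78.4 CPM, while the highest of the other 66 was at 7.85 CPM. They comprised 4 Natural and 6 IVF oocytes, of which 4 came from set 126_4, 2 from 127_2, 2 from 35_3 and 1 each from 92_4 and 92_5. Over the 76 oocytes, log2(CPM + 1) of Mael had a Pearson correlation of -0.59 with Asz1, -0.38 with Ddx4, 0.35 with Piwil2 and 0.24 with Tdrd1, the members for which it was computed. The values were 0.89 with Pou5f1, 0.88 with Sebox and -0.90 with Kif20a, all given as a description. Pou5f1 encodes the pluripotency factor OCT4, Sebox an oocyte homeobox protein and Kif20a a kinesin of cell division. The last 3 genes were chosen after the values were seen, and the points share donor sets, depth and library preparation.

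**Figure D4:**
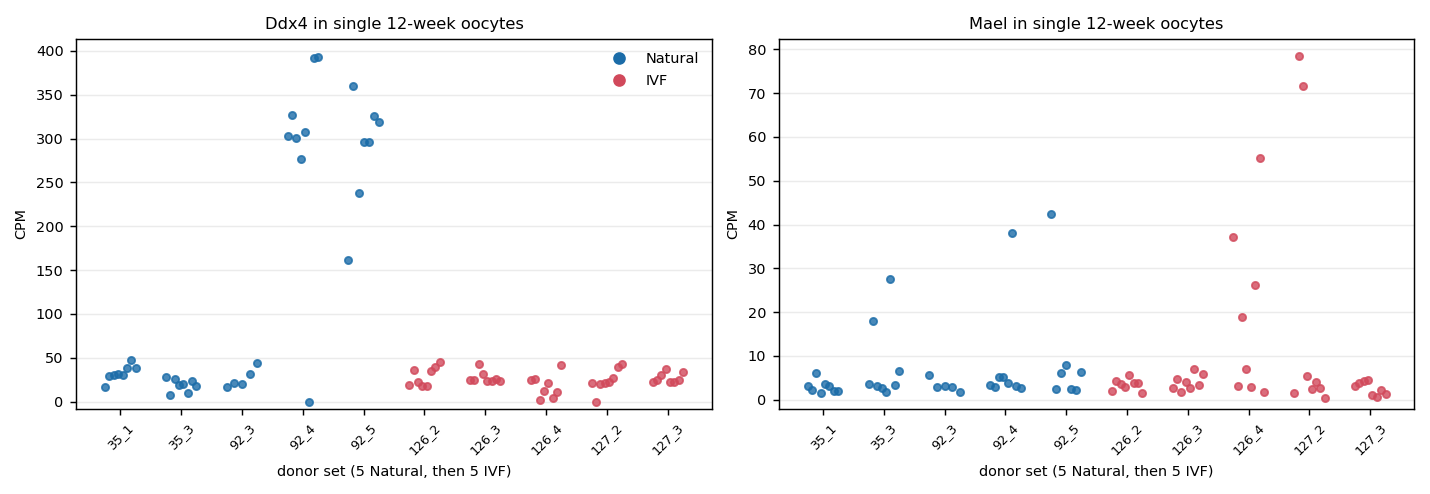
Ddx4 (left) and Mael (right) in single 12-week oocytes, as CPM (vertical axis), by donor set (horizontal axis); each point is 1 of 76 oocytes, blue for Natural and red for IVF. For Ddx4, 14 of 15 oocytes of sets 92_4 and 92_5 lie above 100 CPM and no other oocyte does; for Mael, 10 oocytes of 5 sets lie above 10 CPM.

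The 39-week oocytes carry no donor in their labels, so each group counts as 1 sample and no test was made; the intervals below are exact Poisson ones at 95%, cover counting error only and treat reads as independent molecules. Of the 10 genes, 2 passed a 2-fold difference between the groups' summed CPM, beside 30.1% of 12319 genes. The median log2 ratio of IVF to Natural was 0.06 for the 10 genes and -0.09 for all. Gtsf1 ran from 1.63 to 11.0 CPM with a median of 8.05 in the 9 Natural oocytes and from 9.01 to 34.3 CPM with a median of 15.6 in the 10 IVF oocytes. In 9 of the 10 IVF oocytes it was above all Natural ones. Its summed level was 6.05 CPM (5.59 to 6.53) in Natural and 18.47 CPM (17.8 to 19.1) in IVF, a ratio of 3.05, and the ratio of the medians was under 2-fold, at 0.95 on the log2 scale. The other gene past 2-fold was Piwil4, with 30 counts in Natural and 10 in IVF oocytes, all 10 in 1 IVF oocyte, and its direction turned with the way oocytes were averaged.

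Asz1 ran from 10.1 to 27.2 CPM (median 15.9) in Natural and from 15.5 to 46.1 CPM (median 29.5) in IVF oocytes, with 6 IVF oocytes above all Natural ones. Its summed level was 16.1 CPM (15.3 to 16.8) in Natural and 30.3 CPM (29.5 to 31.1) in IVF, a ratio of 1.89. Ddx4 ran from 7.08 to 28.9 CPM (median 9.60) in Natural and from 9.88 to 53.3 CPM (median 14.7) in IVF oocytes, and the summed levels were 11.4 and 21.4 CPM, a ratio of 1.87. None of the 19 oocytes reached the Ddx4 level of the 2 Natural 12-week sets. Piwil1 ran from 18.6 to 115.7 CPM (median 28.5) in Natural and from 22.7 to 80.2 CPM (median 51.5) in IVF oocytes. Natural oocyte 9, at 115.7 CPM, set the summed Natural level; with it left out the log2 ratio of IVF to Natural rose from 0.29 to 0.89, and that of Mael went from -0.16 to 1.29. Tdrd1 was at 89.1 CPM in Natural and 68.7 CPM in IVF oocytes when summed, and without Natural oocyte 9 its log2 ratio went from -0.37 to 0.12. Natural oocytes 6 and 9 also had Mos at 1.47 and 16.3 CPM and Zar1 at 17.6 and 1.42 CPM, against at least 732 and 718 CPM in all other 39-week oocytes; their part in these values was not tested. With both left out, a choice made after seeing the data, 4 of the 10 genes were past 2-fold, namely Gtsf1 (log2 ratio 1.33), Mael (1.75), Piwil2 (-1.14) and Piwil4 (-2.21), and Asz1 was at 0.96 and Ddx4 at 0.71. The share of all genes past 2-fold without these oocytes is not given here. With all oocytes it was 30.1%, so the count is not read as a result about these genes. Erythroid markers spanned 114.7 to 18370 summed CPM in Natural and 2.34 to 27005 CPM in IVF oocytes; their part in these values was not tested.

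**Figure D5:**
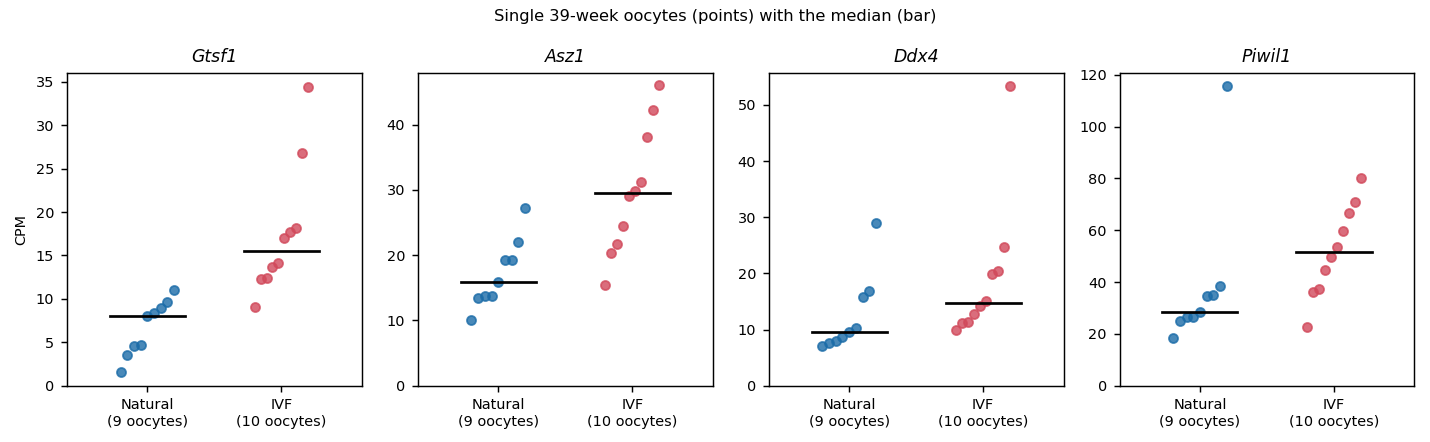
CPM (vertical axis, from 0) of Gtsf1, Asz1, Ddx4 and Piwil1 in single 39-week oocytes, 9 Natural (blue) and 10 IVF (red), sorted within a group, with the median as a bar. For Gtsf1, 9 of 10 IVF oocytes lie above the highest Natural oocyte at 11.0 CPM, and the Piwil1 panel shows Natural oocyte 9 at 115.7 CPM.

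In 12-week cumulus cells, the somatic cells around the oocyte, none of the 10 genes passed the filter on low counts in either group. Mael, Asz1 and Gtsf1 had 0 counts in all 10 libraries, which allows up to 0.0630 CPM over their 47640230 counts together. Tdrd9 had 2 to 15 counts and Piwil2 0 to 12 counts per library, and the 10 genes together reached 1.20 to 6.62 CPM. The libraries held 675.7 to 1300 summed CPM of cumulus markers and 1098 to 2525 of granulosa markers, but also 90.0 to 2484 CPM of immune markers in Natural and 193.4 to 5411 in IVF, more than of cumulus markers in some. The labels of these libraries leave doubts. Natural replicate 5 shares the first fields of its library name, 126_2, with an IVF oocyte set, and 4 columns carry names that stand on 2 sample records each. With that library left out or counted as IVF, 0 of the 10 genes were called.

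The difference between IVF and Natural was also compared between ages. From E18.5 to 12-week ovaries, 0 of the 10 genes had a changed IVF effect by edgeR, 1 had an unadjusted p under 0.05 and DESeq2 called 0, beside 0.314% of 19724 genes. That gene was Gtsf1, whose IVF effect moved by 2.04 on the log2 scale (SE 0.78, 95% interval 0.43 to 3.64, unadjusted p = 0.0148, adjusted p = 0.236 by edgeR). From 12 to 39 weeks in ovaries, 0 passed edgeR's test, 0 had an unadjusted p under 0.05 and DESeq2 called 0, beside 2.71% of genes. From PGCs to 12-week oocytes, 0 passed edgeR's test, 1 had an unadjusted p under 0.05 and DESeq2 called 0, beside 0% of 17368 genes. That gene was Ddx4 (-2.49, SE 0.96, 95% interval -4.48 to -0.50, adjusted p = 0.599 by edgeR), whose value again rests on sets 92_4 and 92_5: without both it was -0.10. These comparisons share the libraries of the within-age ones. Each age also has its own table, so age and table cannot be told apart in them.

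Of 24 further piRNA genes, 22 were in the tables. Between IVF and Natural, 2 of the 19 tested in E18.5 ovaries were called, beside 5.43% of all genes tested there. Both were higher in IVF: Tex15, which works with SPOCD1 in piRNA-directed methylation, at 254.0 to 469.2 CPM against 126.5 to 257.7 in Natural (log2 fold change 0.93, SE 0.20, adjusted p = 0.0231 by edgeR), and Mybl1, a transcription factor that drives piRNA precursor genes in testis, at 18.49 to 24.3 CPM against 8.29 to 16.3 (0.79, SE 0.18, adjusted p = 0.0278 by edgeR). DESeq2 called 4 of the 19. Of the 10 fetal germ cell markers tested in E18.5 ovaries, 2 were called higher and 1 lower in IVF, with a median log2 fold change of 0.60. Their part in the Tex15 and Mybl1 values was not tested. In the other within-age comparisons edgeR called 0 of the further genes tested, which numbered 5 in cumulus cells and 19 or 20 elsewhere. From 1 to 4 had an unadjusted p under 0.05 outside cumulus cells, where 0 did. DESeq2 called 2 in 12-week ovaries, 1 in 39-week ovaries and 0 elsewhere.

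In Natural ovaries from E18.5 to 12 weeks, 14 of 21 tested fell and 3 rose, beside 24.3% of all genes called lower and 25.3% called higher. Those that fell most were Fkbp6 (-5.09), Stk31 (-4.69), Rnf17 (-4.03) and Gpat2 (-4.02), and those that rose were Spocd1 (3.52), Dnmt3l (3.46) and Wdr77 (0.70), all as log2 fold changes. Dnmt3l, the cofactor of de novo DNA methylation, was at 0 to 0.374 CPM in Natural E18.5 ovaries and at 1.20 to 2.65 CPM at 12 weeks. From 12 to 39 weeks, Tdrd6 rose (4.46, to between 0 and 6.57 CPM with a median of 0.332 at 39 weeks) and Gpat2 (-1.51) and Wdr77 (-1.08) fell, 3 of 21 tested beside 21.6% of all genes called in either direction. The IVF effect on Wdr77, a partner of the arginine methylase PRMT5, moved by 1.00 (SE 0.23, adjusted p = 0.0272 by edgeR), the only call among the 21 beside 2.71% of all genes. From Natural PGCs to Natural oocytes, 9 of 22 rose and 11 fell, beside 38.9% of all genes called higher and 37.2% called lower. Dnmt3l had 0 counts in all Natural PGC libraries and was at 11.0 to 13.6 CPM in the oocyte sets, at least 97.1-fold higher against a floor of 3 counts over the group. Tdrd6, a Tudor protein, was also at 0 counts in Natural PGCs and at 0.721 to 1.31 CPM in the sets, at least 7.66-fold higher by the same floor. Spocd1 rose by a log2 fold change of 5.59 and Henmt1, which methylates the ends of piRNAs, by 3.81. Among those that fell were Gpat2, from 113.2 to 502.2 CPM to at most 0.0888 CPM, Gtsf1l, from 225 counts to 1, Mov10 (-7.15) and Wdr77 (-6.60).

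Genes of the microRNA and small interfering RNA pathways, 10 in number and including Dicer1 and Ago2, were set beside them. Between IVF and Natural, edgeR called 0 of the 10 in the 6 tables that were tested, while 5 had an unadjusted p under 0.05 in E18.5 ovaries, where DESeq2 called 3, 4 in each adult ovary table, 1 each in PGCs and 12-week oocytes and 0 in cumulus cells. DESeq2 called 0 in the other tested tables. In Natural ovaries from E18.5 to 12 weeks, 7 of them fell, beside 24.3% of all genes called lower, with a median log2 fold change of -0.53, against -4.67 for the 10 piRNA pathway genes. From 12 to 39 weeks, 5 rose and 0 fell, beside 21.6% of all genes called in either direction. These were Ago2 (log2 fold change 1.10), Ago4 (0.78), Ago3 (0.71) and Ago1 (0.58), the Argonaute proteins that carry microRNAs, and Xpo5 (0.36), the exporter of microRNA precursors. The IVF effect on Ago3 moved by -1.20 between these ages (SE 0.27, adjusted p = 0.0260 by edgeR), the only call among the 10 beside 2.71% of all genes, and DESeq2 also called 1. From Natural PGCs to oocytes, 2 rose and 6 fell, beside 38.9% of all genes called higher and 37.2% called lower, with a median of -1.95.

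Over the 14 group means of the 7 tables, the genes outside all lists with a course most like the mean of the 10 were Alg13 (Pearson r = 0.97), Adad2 (0.97), Trim71 (0.97), Rims3 (0.95) and Ccnb1ip1 (0.95), out of 20323 candidates, given as a description over means that share libraries within a table. Among the 10 themselves the correlation with their mean was highest for Mov10l1 and Mael, at 0.95 each, and lowest for Piwil1 at 0.48 and Piwil4 at 0.29. Each of the 10 is part of that mean, which raises its value, so these are not comparable with those of the outside genes.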

How the data were processed

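RNA-seq read counts per gene were deposited by the authors as 7 tables of whole numbers, 1 for each tissue or cell type and age, with no normalization. Per the labels and the submitters' processing notes, ovary libraries were made with a stranded mRNA kit and low-input libraries with a modified SMART-seq protocol, and the tools named were Trimmomatic 0.32, STAR 2.3.0e, featureCounts 1.5.0 and DESeq2 with the mm10 build; their settings are not given in the sources used here. In the ovary tables, 25 gene names each had been turned into numbers. All columns could be mapped to a sample or group (0 were not), and 0 columns were identical. The 4 cumulus samples of 39 weeks were not analysed here.

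Members and gene lists were chosen with earlier results of these data known. The named genes were all 10 members, up to 4 called genes per direction of the further piRNA genes, and the 5 genes of most similar course (Pearson correlation of group means of log2 CPM with a prior count of 2, among genes with at least 1 CPM in a group). Marker lists (fetal germ cells, oocyte growth, granulosa, cumulus, oviduct, erythroid, immune) were summed as CPM; immune markers had 0 genes called between IVF and Natural by edgeR in any table, where up to 1 had an unadjusted p under 0.05 and DESeq2 called up to 1.

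Each comparison of IVF with Natural used its own table (edgeR 4.0.16, R 4.3.3: filterByExpr, TMM, glmQLFit, glmQLFTest, Benjamini-Hochberg over all genes tested, threshold 0.05). Contrasts between ages used 1 joint fit of the ovary tables and 1 of PGCs and 12-week oocyte sets. SE is the absolute log2 fold change over the square root of F. Oocytes of 12 weeks were summed by the first fields of their library names, which the labels do not explain. For 39-week oocytes the summed CPM were compared at 2-fold, with no test. Printed CPM are plain, without TMM factors. The cumulus fit had a term for library series. Steps were tested on simulated data. Alternatives were DESeq2 1.42.0, RLE size factors, no filter, germ cell marker scaling, a replicate block, leaving out each library or set, and counting 1 Natural cumulus library of doubtful label as IVF; 6 more, on the high-Ddx4 sets, 3 ovaries and 2 oocytes, were chosen after seeing the data. DESeq2's missing adjusted p-values stayed missing. The windows at gene starts and gene coordinates came from RefSeq, and exon overlaps and lengths from GENCODE, both of GRCm38.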

Additional observations from a re-analysis of the deposited data

Results flagged for a closer look

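Among 118 groups of 4 to 10 libraries, donor sets or oocytes checked gene by gene, 18 had a highest or lowest value far from the rest; chance flags about 1 in 20 such groups, and the genes of 1 library are not independent. In E13.5 PGCs, Natural replicate 2 was the highest for Tdrd1 (75.5 CPM, next 14.1), Tdrd9 (15.8, next 3.04), Gtsf1 (7.09, next 1.33) and Piwil1 (2.99, next 0.458). In E18.5 ovaries, Natural replicate 3 was the lowest for Piwil2 (43.2 CPM, next 131) and the highest for Piwil4 (1.10, next 0.487). In 39-week ovaries, Natural replicate 5 was the highest for Ddx4 (3.01 CPM, next 1.22) and IVF replicate 4 for Piwil1 (1.01, next 0.429). In 12-week oocytes, set 92_4 was the highest Natural set for Mov10l1 (4.77 CPM, next 2.71). In 39-week Natural oocytes, oocyte 9 was the highest for Piwil1 (115.7 CPM, next 38.6), Mael (20.4, next 4.89) and Tdrd9 (16.1, next 9.66), oocyte 4 for Piwil2 (10.2, next 4.58) and oocyte 7 for Ddx4 (28.9, next 16.9). In 39-week IVF oocytes, the highest values were those of oocyte 7 for Piwil4 (3.55 CPM, all others 0), oocyte 2 for Mov10l1 (17.1, next 7.48), oocyte 9 for Tdrd1 (137.6, next 81.1) and oocyte 8 for Ddx4 (53.3, next 24.7). The 2 Natural donor sets with high Ddx4 were not among these values, since the pair lay close together.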

How the results depend on the processing

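Of 2767 values recomputed under the alternatives, 2727 were labelled as unchanged. For a called gene this means that it kept its direction and side of the threshold. A gene not called claims no direction, so it counted as unchanged when it stayed uncalled, even if its sign turned. With no test, it means a move of less than the spread. No gene of the 10 became called between IVF and Natural under any alternative run, including DESeq2, no filter and leaving out each library. The count of genes past a 2-fold difference in 39-week oocytes went from 2 to 1 with medians over oocytes (Mael, at 1.82 on the log2 scale) and to 4 with Natural oocytes 6 and 9 left out, which added Mael (1.75) and Piwil2 (-1.14). The share over all genes is not given here for either setting. The log2 ratio of Piwil4 in those oocytes changed sign from -2.32 to 0.58 with the mean over oocytes and to 0.12 with TMM-scaled means; a single IVF oocyte holds all its IVF counts. The calls between Natural PGCs and oocytes went from 8 to 9 only with sets 92_4 and 92_5 left out, which added Ddx4. Germ cell marker scaling moved the median of all genes by -0.28, -0.52 and -0.19 in E18.5, 12-week and 39-week ovaries, RLE size factors moved it by -0.13 between PGCs and oocytes, and no call changed. With germ cell marker scaling, the median of the 10 genes went from 0.32 to 0.12 at E18.5. It turned negative in adult ovaries, from 0.06 to -0.40 at 12 weeks and from 0.20 to -0.07 at 39 weeks. Same-numbered libraries did not deviate together in every pair (correlations from -0.36 to 0.54), so numbers were not taken to pair samples; with the replicate block, 0 of the 10 genes were called in each of the 5 tables fitted; in cumulus cells none of them passed the filter, with or without the block. No paired analysis was possible in 12-week oocytes because the donor sets share no numbers. The shallow libraries, such as 12-week IVF ovary replicate 4, limit what low genes such as Piwil4 can show.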
